A study of Mus musculus with 12 samples.

Results

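The genes described here are the cytochrome P450 genes of mouse skin, taken as every gene whose symbol begins with Cyp and a digit, less pseudogenes, and measured by a probe set that names that gene alone. This rule gave 84 of the 19938 genes on the array, each with 1 probe set. The rule used no measured value. Of 87 symbols that matched, 3 pseudogenes (Cyp2d13, Cyp2d37-ps and Cyp4f41-ps) were left out. A further 9 symbols, among them Cyp2a4, Cyp2a5 and Cyp3a41a, occurred only on probe sets shared by several genes and were not analysed here. RNA came from skin biopsies of female Balb/c mice, in 4 groups of 3 that the labels call biological replicates. One group was left untreated. The other groups received RNAdjuvant, an RNA complexed with a cationic peptide that serves as a vaccine adjuvant, into the dermis, and their skin was taken 1.5 h, 6 h or 24 h later. Labels state 25 mg as the dose, and its unit could not be checked. Untreated mice were the only controls, so the effect of the needle and carrier cannot be told apart from that of the RNA. Body site, clock time of collection and age of the mice were not given in these sources.

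Cytochrome P450 enzymes are heme proteins that insert an oxygen atom into a lipid or a foreign compound, with electrons passed on by P450 oxidoreductase in the endoplasmic reticulum or by ferredoxin in mitochondria. In skin they are known for clearing retinoic acid, activating vitamin D, building steroids and cholesterol, and oxidising fatty acids of the epidermal barrier. Cyp1 genes are the standard targets of the aryl hydrocarbon receptor, which senses tryptophan products and pollutants. Liver expresses many Cyp2, Cyp3a and Cyp4a genes at high level, and inflammation is known to lower a number of them there.

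Each value is a log2 intensity from 1 Affymetrix array, on which 1 unit is a doubling of signal. Intensities of different probe sets are not amounts that can be ranked against each other, and the table holds no detection p-values, so no low value was called absent. The keratin probe sets of skin were bright on all 12 arrays, as the value of Krt10 was between 12.39 and 12.67, while the mean of 6 hepatocyte markers was between 4.48 and 4.77. The median over genes of the mean intensity was 6.24 for all genes and 4.28 for the Cyp genes. Of the 84 genes, 21 lay above the median of all genes and 63 at or below it. Means over the 12 arrays were 11.35 for Cyp2g1, 10.13 for Cyp2f2, 9.90 for Cyp2e1, 8.58 for Cyp1b1 and 8.49 for Cyp51. Means of 1.86 for Cyp3a11, 2.08 for Cyp2a22 and 2.12 for Cyp2c38 lay at the other end. Over all genes, r was 0.980 to 0.987 for arrays within a group and 0.961 to 0.986 between groups. Markers of other tissues differed between arrays: the mean of 5 B cell and lymph node markers was 7.26 on replicate 1 at 1.5 h and 6.88 on replicate 1 at 6 h, against 3.90 to 4.40 on the other 10 arrays. Means of the 13 hair shaft and root sheath markers were 8.02 on untreated replicate 2 and 4.79 to 5.76 elsewhere.

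Sequences upstream of the gene starts are shown first for 4 genes, from the RefSeq table of assembly GRCm38.p6, because the results below turn on a pair of aryl hydrocarbon receptor targets (Cyp1a1 and Cyp1b1) and on neighbours of the Cyp2b family (Cyp2b19 and Cyp2b23). Each run is the 250 bases before the annotated start, 5′ to 3′ on the gene's strand. Capitals mark GCGTG, the core of the element bound by the aryl hydrocarbon receptor (CACGC where it lies on the other strand), TATAAA, or AGGTCA, the half-site of nuclear receptors. The Cyp1a1 run is chr9:57697363-57697612 on the plus strand, and the Cyp1b1 run is chr17:79715062-79715311 on the minus strand.
Cyp1a1: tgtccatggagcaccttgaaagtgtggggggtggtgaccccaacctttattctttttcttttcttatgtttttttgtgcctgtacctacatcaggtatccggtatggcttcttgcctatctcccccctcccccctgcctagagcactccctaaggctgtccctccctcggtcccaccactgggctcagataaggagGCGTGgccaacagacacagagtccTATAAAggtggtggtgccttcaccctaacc
Cyp1b1: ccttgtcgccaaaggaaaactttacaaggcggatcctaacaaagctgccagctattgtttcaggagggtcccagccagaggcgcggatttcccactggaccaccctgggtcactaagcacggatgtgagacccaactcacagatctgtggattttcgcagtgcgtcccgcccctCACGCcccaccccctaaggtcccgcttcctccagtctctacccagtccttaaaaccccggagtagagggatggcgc
The Cyp2b19 run is chr7:26756892-26757141 on the plus strand, and the Cyp2b23 run is chr7:26686431-26686680 on the minus strand.
Cyp2b19: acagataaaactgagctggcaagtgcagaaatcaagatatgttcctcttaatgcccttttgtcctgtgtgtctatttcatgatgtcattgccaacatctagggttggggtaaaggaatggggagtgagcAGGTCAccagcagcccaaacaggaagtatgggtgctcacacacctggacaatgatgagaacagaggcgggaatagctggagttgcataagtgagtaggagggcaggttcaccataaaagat
Cyp2b23: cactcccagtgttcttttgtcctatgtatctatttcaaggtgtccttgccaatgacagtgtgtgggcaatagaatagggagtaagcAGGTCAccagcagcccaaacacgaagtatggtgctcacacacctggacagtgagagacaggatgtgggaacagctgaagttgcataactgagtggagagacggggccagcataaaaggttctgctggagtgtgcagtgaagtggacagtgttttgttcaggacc
In Cyp1a1 the core begins at position -54 and TATAAA at -30, counted from the start. In Cyp1b1 the core lies on the other strand and begins at -76. Both Cyp2b runs hold AGGTCA, at -121 in Cyp2b19 and at -164 in Cyp2b23, and 168 of 202 bases that align without gaps (83.2%) are the same in both. Searched on both strands, GCGTG occurs in 28.16% of the 32851 windows in the table and in 16 of the 72 windows of Cyp genes. AGGTCA occurs in 14.02% of all windows and in 16 of the 72, and TATAAA in 12.37% and in 23 of the 72. TGANTCA, the AP-1 site, occurs in 6.75% of all windows and in 4 of the 72, and the core of the interferon-stimulated response element in 2.98% and in 1 of the 72. No matches of different motifs overlapped. A match describes the letters only, and binding was not measured. Cyp2g1, Cyp17a1 and Cyp39a1 are named without a sequence.

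Most of the Cyp genes that passed against untreated skin fell, and Cyp1b1 alone rose. At 1.5 h, 4 of 84 Cyp genes fell and 0 rose (limma, adjusted p under 0.05 over all 19938 genes), which is 4.76% against 2.2% of all genes called. Of all genes, 1.59% were called lower and 0.612% higher at that time. At 6 h, 4 Cyp genes fell and 1 rose, 5.95% against 6.09% of all genes (2.71% lower and 3.38% higher). At 24 h, 4 fell and 0 rose, 4.76% against 3.36% of all genes (0.808% lower and 2.55% higher). Over all 84 genes the share at 6 h was thus near that of all genes. With dim genes left out (mean below the median of all genes), 21 Cyp genes and 9969 genes in all were tested. Of those Cyp genes 19.0%, 33.3% and 19.0% were called at the 3 times, against 4.86%, 13.8% and 6.84% of the genes kept. At each time 15 of the 84 genes (17.9%) had an unadjusted p under 0.05, near the 17.5% and 17.1% of all genes at 1.5 h and 24 h and below the 23.2% at 6 h. The count at 1.5 h was 2 (2.38%) without untreated replicate 2 or 3 or 1.5 h replicate 2. Of all genes, 0.487%, 0.532% and 0.632% were then called. The count at 6 h was 3 (3.57%) without untreated replicate 1 or 3 or 6 h replicate 3. Of all genes, 3.71%, 3.57% and 3.8% were then called. The genes that fell were Cyp2g1 and Cyp17a1 at all 3 times, Cyp2b19 at 1.5 h and 24 h, Cyp2f2 at 1.5 h, Cyp39a1 and Cyp20a1 at 6 h, and Cyp2ab1 at 24 h. Cyp1b1 rose at 6 h. The median change of the 84 genes was 0.01, -0.02 and -0.01 at the 3 times, beside 0.02, -0.04 and 0.00 for all genes. Treated and untreated arrays did not overlap for 7 Cyp genes higher and 11 lower at 1.5 h, 8 higher and 14 lower at 6 h, and 4 higher and 11 lower at 24 h. Among all genes such non-overlap was found for 11.8% higher and 13.3% lower (25.1% in all) at 1.5 h, 11.4% and 19.3% (30.8%) at 6 h, and 10.9% and 12.4% (23.3%) at 24 h.

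**Figure D1:**
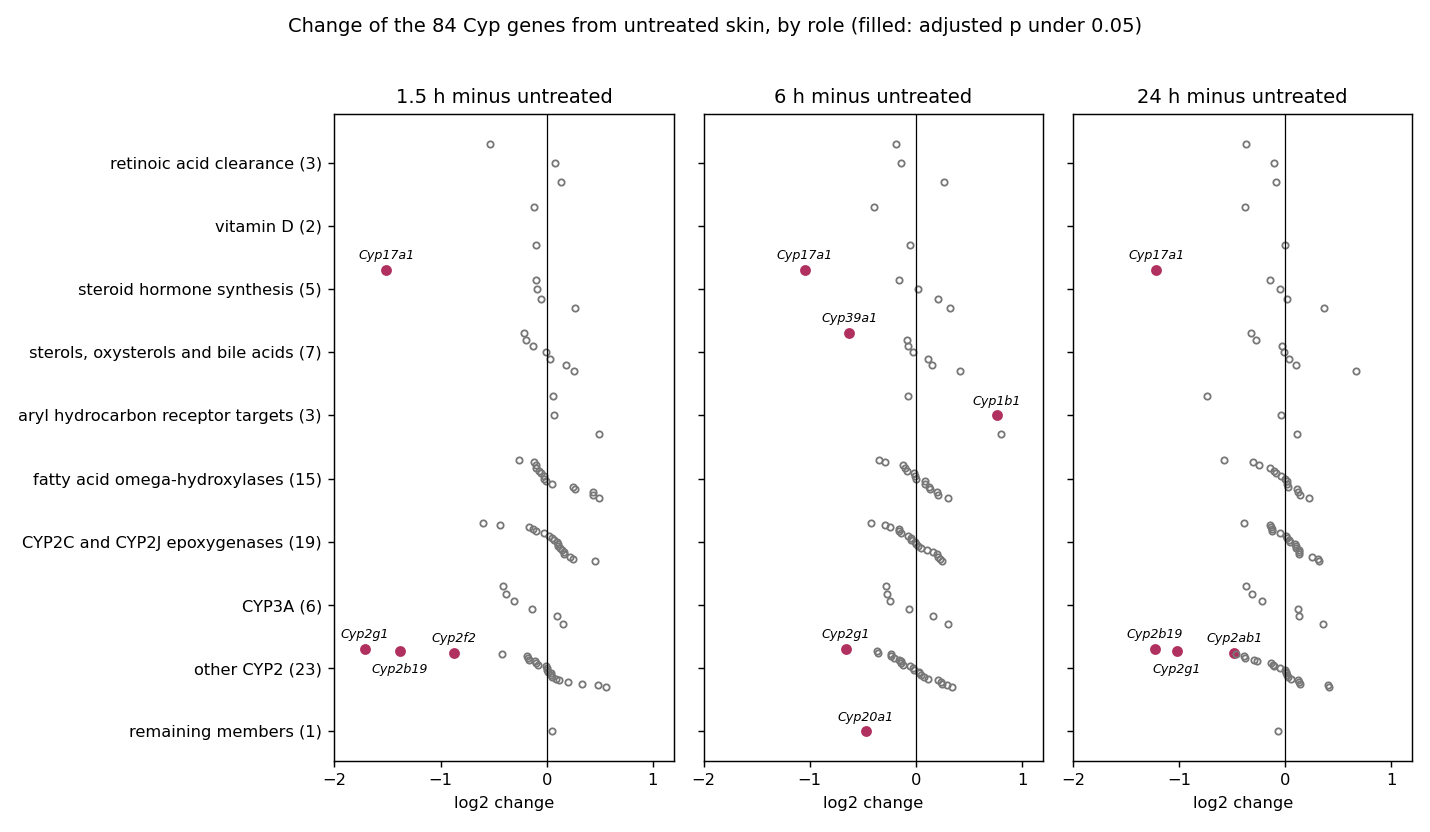
Log2 change of each of the 84 Cyp genes from untreated skin at 1.5 h, 6 h and 24 h (x axis), grouped by role (y axis, number of genes in brackets); filled points passed limma's test at an adjusted p under 0.05. The 8 named genes passed at 1 or more times, and Cyp1b1 is the only filled point right of 0.

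Compared with each other, the times differed most between 1.5 h and 6 h. From 1.5 h to 6 h, 7 Cyp genes rose and 2 fell, 10.7% of the family against 13.3% of all genes (5.47% higher, 7.8% lower). The balance of rises and falls depended on the scaling, though no call changed sign: with each array centred on its median, 4 rose and 5 fell, and after quantile normalization 5 rose and 4 fell. Those scalings moved the median change of all genes in this comparison to -0.17 and -0.11. From 6 h to 24 h, 4 Cyp genes fell and 0 rose, 4.76% against 3.44% of all genes (2.03% higher, 1.41% lower). From 1.5 h to 24 h, 1 rose and 1 fell, 2.38% against 2.91% of all genes. With dim genes left out, the shares in these 3 comparisons were 38.1%, 14.3% and 9.52% of 21 Cyp genes. Of the 9969 genes kept, 28.7%, 10.6% and 6.81% were called. Between 1.5 h and 6 h the groups did not overlap for 11 Cyp genes higher and 8 lower, where 13.2% of all genes were higher and 19.8% lower (33.0% in all). Between 6 h and 24 h the numbers were 4 and 10, against 14.2% and 9.29% (23.5%), and between 1.5 h and 24 h they were 3 and 4, against 9.82% and 9.12% (18.9%). From 1.5 h to 6 h the count of calls was 4 (4.76%) without 1.5 h replicate 2 or 6 h replicate 2, against 5.72% and 4.76% of all genes. It was 5 (5.95%) without 6 h replicate 1 or 3, against 11.6% and 9.61%. From 6 h to 24 h it was 1 (1.19%) without 6 h replicate 2, against 0.712% of all genes. Without 6 h replicate 3 it was 2 (2.38%), against 1.52%. The F test of limma for a change at any time called 9 of the 84 genes, where it called 11.4% of all genes. Without 6 h replicate 2 it called 5 of the 84 and 5.96% of all genes. In all, 12 Cyp genes passed in at least 1 comparison, 9 of which lay above the median intensity of all genes, and 72 passed in none. The comparisons with untreated skin share the same 3 control arrays, so their values for a gene are not independent. Centring arrays on their medians also moved the share of called genes that were higher, over all genes, from 27.8% to 56.9% at 1.5 h, from 41.2% to 16.5% between 1.5 h and 6 h, and from 59.0% to 80.2% between 6 h and 24 h. Quantile normalization moved the share at 1.5 h to 43.2%.

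**Figure D2:**
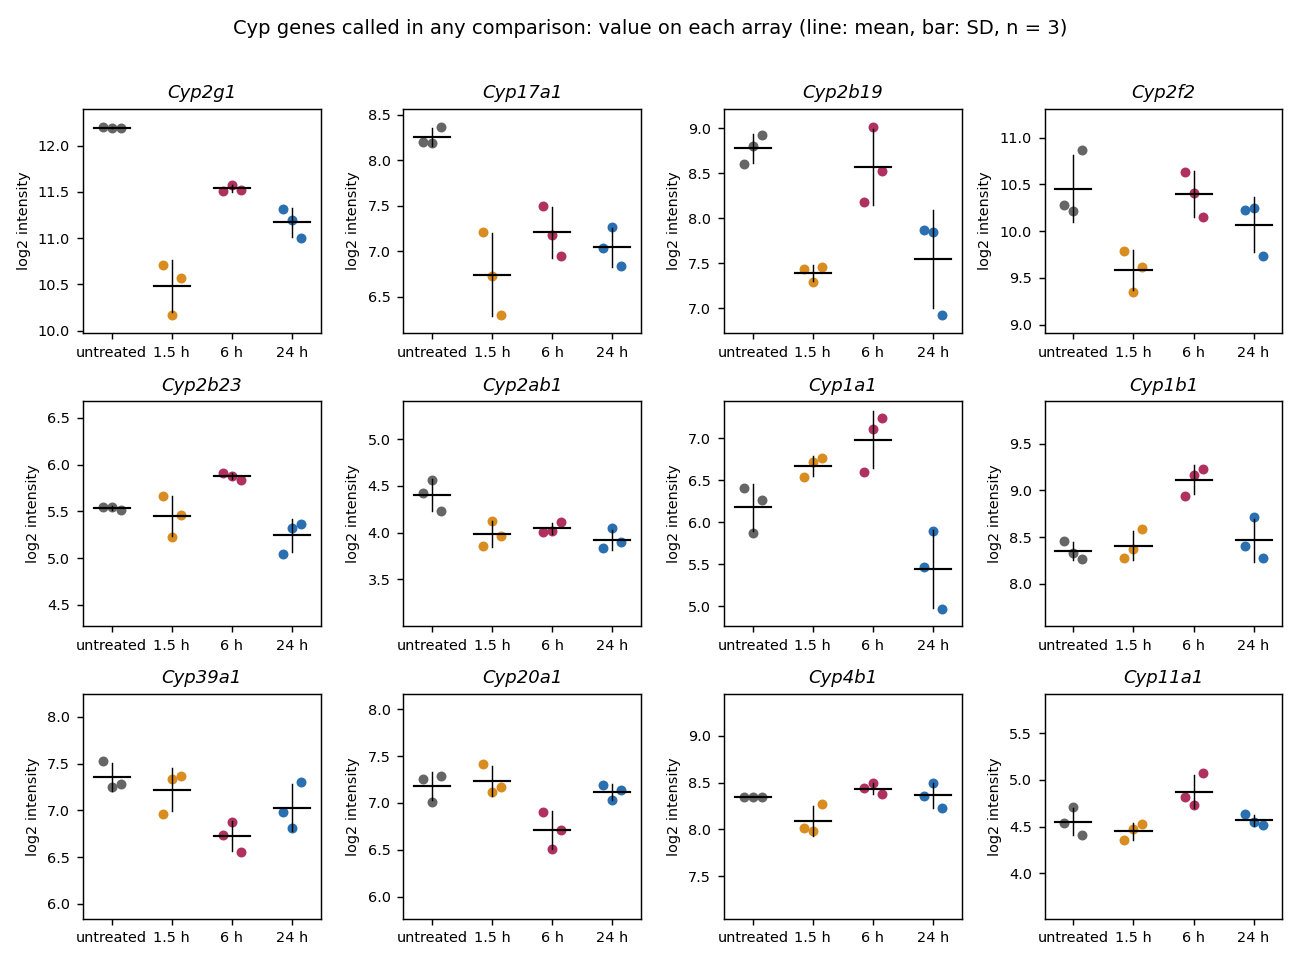
Log2 intensity (y axis) on each of the 12 arrays for the 12 Cyp genes that passed in any comparison, by group (x axis); points are arrays, the line is the mean and the bar the SD of 3 arrays, and each panel has its own range of values. Cyp2g1 and Cyp17a1 sit below the untreated arrays at all 3 times, and Cyp1b1 sits above them at 6 h.

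Among the 5 measured genes of steroid hormone synthesis, Cyp17a1 fell at all 3 times and the other 4 did not pass against untreated skin. Cyp17a1 encodes the hydroxylase and lyase that turns pregnane steroids into androgen precursors. Its values were 8.21, 8.20 and 8.37 in untreated skin and 7.21, 6.72 and 6.30 at 1.5 h. The 6 h arrays gave 7.50, 7.18 and 6.95, those of 24 h 7.03, 7.27 and 6.84. All 9 treated arrays lay below all 3 untreated arrays, and the 3 treated groups overlapped each other. Cyp17a1 fell by 1.51 on the log2 scale at 1.5 h (standard error 0.20, 2.85-fold lower, limma adjusted p = 0.00349). It fell by 1.05 at 6 h (2.07-fold lower, adjusted p = 0.00707) and by 1.21 at 24 h (2.32-fold lower, adjusted p = 0.00311). No single array, when left out, ended any of these 3 calls, whose highest adjusted p was then 0.0386. The differences between times did not pass, as from 1.5 h to 6 h the change was 0.46 with a 95% interval of 0.03 to 0.90 (adjusted p = 0.144).

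Cyp11a1, which cleaves the side chain of cholesterol in the first step to all steroids, had values of 4.54, 4.71 and 4.41 in untreated skin and 4.35, 4.47 and 4.53 at 1.5 h. At 6 h its values were 4.81, 4.74 and 5.08, and at 24 h 4.64, 4.55 and 4.52. The 6 h arrays lay above all 9 others, by little. The gene did not pass against untreated skin (0.32 at 6 h, adjusted p = 0.119) and passed from 1.5 h to 6 h with a rise of 0.42 (adjusted p = 0.0298). That call was lost without replicate 1 or 2 at 1.5 h or replicate 3 at 6 h (adjusted p = 0.0934, 0.0761 and 0.0976), and its adjusted p was between 0.0293 and 0.435 over 21 alternatives. Cyp11b2, the aldosterone synthase, was 0.36 higher at 24 h (adjusted p = 0.249). The lowest to highest mean intensity of the 5 genes was 3.26 to 7.31, the latter that of Cyp17a1.

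The other CYP2 genes, 23 in number, held 3 of the 4 falls at 1.5 h, 1 of 4 at 6 h and 3 of 4 at 24 h. Of these falls, all but that of Cyp2ab1 lay in 1 run of neighbouring genes on chromosome 7. This run holds 11 of the 84 Cyp genes in the order Cyp2s1, Cyp2b10, Cyp2b13, Cyp2b9, Cyp2b23, Cyp2b19, Cyp2g1, Cyp2a22, Cyp2a12, Cyp2f2 and Cyp2t4. Cyp genes outside the 84 were not placed in the order. Within the run, 3 genes fell at 1.5 h (Cyp2b19, Cyp2g1 and Cyp2f2), 1 at 6 h (Cyp2g1) and 2 at 24 h (Cyp2b19 and Cyp2g1), and none rose. Median changes of the 11 genes were -0.16, -0.14 and -0.27. A run here is 4 or more Cyp genes with no gap over 1000000 bases between them, and there were 6 more, on chromosomes 4 (with 6 and 7 genes), 5 (5), 15 (8), 17 (7) and 19 (12). Of those genes 0 passed limma against untreated skin at any time, although 0 to 2 genes per run had an unadjusted p under 0.05. Of all genes, 2.2%, 6.09% and 3.36% passed at the 3 times. The runs also differed in intensity. Means over the 12 arrays were 8.07 for Cyp2b19, 11.35 for Cyp2g1 and 10.13 for Cyp2f2, and at most 8.31 (Cyp4b1) in the other runs. The part of intensity in this contrast was not tested. The falling genes were not the whole run: Cyp2a22, between Cyp2g1 and Cyp2f2, changed by 0.04, -0.01 and 0.03 at the 3 times, none of which passed. Close relatives may share probe sequence, so signal from a neighbour cannot be told apart from that of the named gene.

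**Figure D3:**
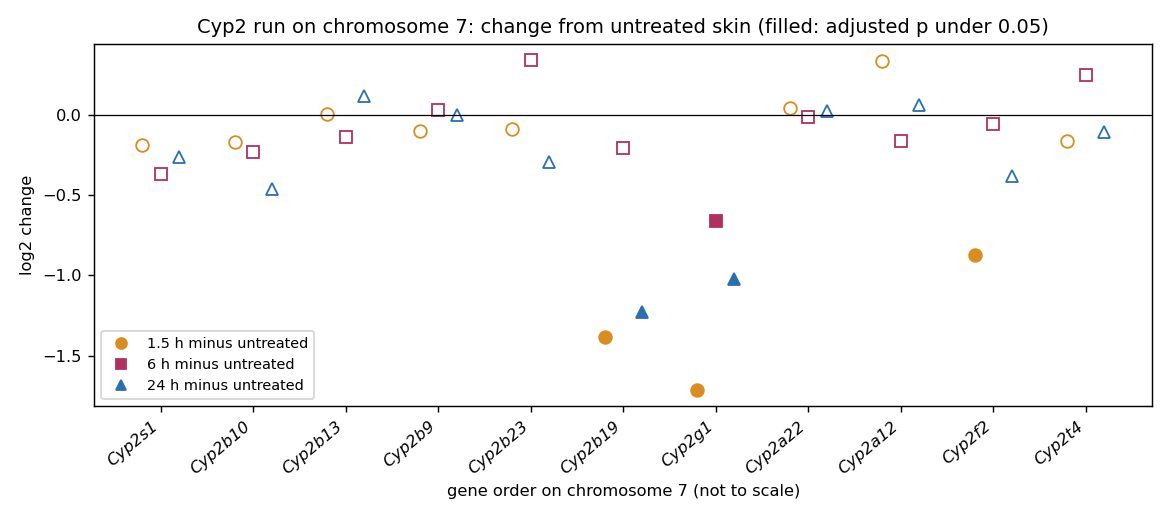
Log2 change from untreated skin (y axis) of the 11 analysed Cyp genes of the chromosome 7 run in their genomic order (x axis, not to scale), with 1 symbol per time. Filled symbols passed limma's test. Cyp2b19 and Cyp2g1, which adjoin, and Cyp2f2 carry all filled symbols, from -0.66 to -1.71.

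Cyp2g1, known from olfactory mucosa and skin, gave a mean untreated intensity of 12.20 ± 0.0052 (SD, n = 3). Its values were 12.20, 12.19 and 12.20 in untreated skin, then 10.71, 10.17 and 10.57 at 1.5 h. The 6 h arrays gave 11.51, 11.58 and 11.52, those of 24 h 11.31, 11.20 and 11.01. The 4 groups did not overlap in any pair, and the order was untreated, 6 h, 24 h and 1.5 h from high to low. Cyp2g1 fell by 1.71 at 1.5 h (standard error 0.13, 3.27-fold, limma adjusted p = 3.02e-05), by 0.66 at 6 h (1.58-fold, adjusted p = 0.00871) and by 1.02 at 24 h (2.03-fold, adjusted p = 0.000311). Between times it rose by 1.05 from 1.5 h to 6 h (adjusted p = 0.000189) and stood 0.69 higher at 24 h than at 1.5 h (adjusted p = 0.00963). The further change of -0.36 from 6 h to 24 h did not pass (adjusted p = 0.140). No left-out array ended any of its 5 calls. With only the groups compared in the fit, the call between 1.5 h and 24 h was lost (adjusted p = 0.0681).

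Cyp2b19 encodes an arachidonic acid epoxygenase of differentiated keratinocytes. Untreated skin gave 8.60, 8.80 and 8.93, and the 1.5 h arrays 7.44, 7.29 and 7.45. The 6 h values were 8.18, 9.02 and 8.52, those of 24 h 7.87, 7.84 and 6.92. The 1.5 h and 24 h arrays lay below every untreated array, while the 6 h arrays spanned the untreated range. The gene fell by 1.38 at 1.5 h (standard error 0.24, 2.61-fold, adjusted p = 0.0135) and by 1.23 at 24 h (2.35-fold, adjusted p = 0.0101). At 6 h the difference from untreated skin was -0.21 with a 95% interval of -0.72 to 0.31 (adjusted p = 0.628). The rise of 1.18 from 1.5 h to 6 h passed (adjusted p = 0.00812), as did the fall of 1.02 from 6 h to 24 h (adjusted p = 0.0370). The 1.5 h call was lost without untreated replicate 2 (adjusted p = 0.0563), untreated replicate 3 (0.0700) or 1.5 h replicate 2 (0.0562), and ran from 0.00240 to 0.0702 over 22 alternatives. The 24 h call was lost without untreated replicate 3 (0.0517), with a range of 0.00614 to 0.0721. The fall from 6 h to 24 h was lost without untreated replicate 3 (0.0516), 6 h replicate 2 (0.169) or 3 (0.0836), or 24 h replicate 3 (0.126), with a range of 0.0177 to 0.169.

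Cyp2f2, best known from the club cells of the lung, where it oxidises naphthalene, had values of 10.28, 10.22 and 10.87 in untreated skin. They were 9.79, 9.35 and 9.61 at 1.5 h, 10.64, 10.41 and 10.15 at 6 h, then 10.23, 10.25 and 9.74 at 24 h. The 1.5 h arrays lay below all untreated and all 6 h arrays and overlapped those at 24 h. The fall of 0.87 at 1.5 h passed by a narrow margin (1.83-fold, limma adjusted p = 0.0392). It was lost when any 1 of the 6 arrays compared was left out, or 6 h replicate 2, with adjusted p up to 0.143 without untreated replicate 3, and it ran from 0.0191 to 0.143 over 22 alternatives. The rise of 0.81 from 1.5 h to 6 h passed (adjusted p = 0.0187) and was lost without 1.5 h replicate 2 (0.0776), 6 h replicate 1 (0.0551) or 6 h replicate 2 (0.0678), with a range of 0.0108 to 0.0776. The change at 1.5 h was between -0.99 and -0.66 under the alternatives.

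Cyp2b23 adjoins Cyp2b19, and its upstream run resembles that of Cyp2b19. Like Cyp2b19 it rose from 1.5 h to 6 h and fell from 6 h to 24 h, by less. Its change from untreated skin at 1.5 h was -0.09, against -1.38 for Cyp2b19. Values of Cyp2b23 were 5.54, 5.55 and 5.52 in untreated skin, and 5.66, 5.23 and 5.46 at 1.5 h. The 6 h values were 5.91, 5.88 and 5.84, those of 24 h 5.04, 5.32 and 5.37. The 6 h arrays lay above all others and the 24 h arrays below the untreated ones, but no comparison with untreated skin passed (0.34 at 6 h, adjusted p = 0.117, and -0.29 at 24 h, adjusted p = 0.237). The fall of 0.63 from 6 h to 24 h passed (adjusted p = 0.0152) and was lost without 6 h replicate 2 (0.0736) or 24 h replicate 1 (0.0541), with a range of 0.0104 to 0.0736. The rise of 0.42 from 1.5 h to 6 h (adjusted p = 0.0359) was lost without any 1 of 5 arrays, 1.5 h replicates 2 (0.142) and 3 (0.0678) and the 3 arrays of 6 h (0.0767, 0.106 and 0.0655), with a range of 0.0224 to 0.142.

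Cyp2ab1, a little-studied gene on chromosome 16, had values of 4.42, 4.57 and 4.23 in untreated skin, 3.85, 4.13 and 3.96 at 1.5 h, 4.02 and 4.11 on replicates 2 and 3 at 6 h, then 3.84, 4.05 and 3.89 at 24 h. The 6 h mean was 4.04 ± 0.056 (SD, n = 3). All 9 treated arrays lay below the 3 untreated ones. The fall of 0.48 at 24 h passed (adjusted p = 0.0353), and those of 0.42 at 1.5 h and 0.36 at 6 h did not (adjusted p = 0.0755 and 0.0798). All values lie below the median gene on the array, and with values under 5 raised to 5 the change was 0. The 24 h call was lost without untreated replicates 1 (0.0967) or 2 (0.155) and without 24 h replicates 1 (0.117) or 3 (0.106), and its adjusted p ran from 0.0272 to 1 over 21 alternatives. Cyp2e1, the ethanol-oxidising enzyme, was bright and variable, with untreated values of 10.04, 9.40 and 9.41 and treated values from 9.41 to 10.54. Its differences of 0.48, 0.24 and 0.41 did not pass (adjusted p = 0.392, 0.632 and 0.492). Cyp2s1, an epithelial P450 that acts on retinoids and lipid peroxides, differed by -0.18, -0.37 and -0.27 without passing.

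Of the 3 aryl hydrocarbon receptor targets of the family, Cyp1b1 rose at 6 h, Cyp1a1 was lowest at 24 h, and no comparison of Cyp1a2 passed. Cyp1a1 and Cyp1b1 both had their highest mean at 6 h, and both fell from 6 h to 24 h. Cyp1b1 oxidises estrogens and polycyclic compounds. Its values were 8.46, 8.33 and 8.27 in untreated skin, 8.28, 8.37 and 8.58 at 1.5 h, 8.94, 9.17 and 9.23 at 6 h, then 8.40, 8.72 and 8.28 at 24 h. The 6 h arrays lay above the other 9 arrays, whose groups overlapped each other. Cyp1b1 rose by 0.76 at 6 h (standard error 0.13, 1.69-fold, limma adjusted p = 0.00354), a call that each of 22 alternatives kept, with adjusted p from 0.00139 to 0.0214. It rose by 0.70 from 1.5 h to 6 h (adjusted p = 0.00525) and fell by 0.65 from 6 h to 24 h (adjusted p = 0.0217). The latter was lost without 6 h replicate 2 (0.102) or 3 (0.0751), or 24 h replicate 1 (0.0677) or 3 (0.101), with a range of 0.0108 to 0.102.

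Cyp1a1, the most inducible of these genes, had values of 6.41, 5.87 and 6.27 in untreated skin and 6.54, 6.71 and 6.77 at 1.5 h. The 6 h values were 6.60, 7.11 and 7.24, those of 24 h 5.47, 5.90 and 4.97. The 1.5 h and 6 h arrays lay above the untreated ones, and the 24 h arrays below those of 1.5 h and 6 h. Cyp1a1 fell by 1.54 from 6 h to 24 h (standard error 0.22, 2.90-fold, adjusted p = 0.00326) and stood 1.23 lower at 24 h than at 1.5 h (2.35-fold, adjusted p = 0.00679). Neither call was lost when any 1 array was left out. With values under 5 raised to 5, the call between 1.5 h and 24 h was lost (adjusted p = 0.0536). Against untreated skin the differences were 0.49 at 1.5 h, 0.80 at 6 h and -0.74 at 24 h, and none passed (adjusted p = 0.269, 0.0512 and 0.0995). The difference at 6 h passed under 7 of 22 alternatives, among them without 6 h replicate 1 (0.99, adjusted p = 0.0227), with a range of 0.0226 to 0.162. That at 24 h passed under 1, without 24 h replicate 2 (-0.96, adjusted p = 0.0347), with a range up to 0.334. Cyp1a2 was between 3.26 and 3.86 on all arrays and differed by 0.07, -0.08 and -0.04.

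Of 5 measured receptor targets outside the family, 1 passed against untreated skin: Tiparp, a polymerase that represses the receptor, rose by 0.88 at 1.5 h (limma adjusted p = 0.00105) and by 0.41 at 6 h (adjusted p = 0.0274). Tiparp values were 7.60, 7.50 and 7.80 in untreated skin and 8.45, 8.53 and 8.58 at 1.5 h, so the groups did not overlap. Ahrr, the receptor's repressor, differed by -0.43, -0.16 and -0.27, and Nqo1 by 0.19, -0.01 and 0.20, and none of these passed. Aldh3a1 was 0.82 higher at 6 h than at 1.5 h (adjusted p = 0.0118) but did not pass against untreated skin (-0.66, 0.16 and -0.49). The receptor gene Ahr differed by -0.32, -0.16 and -0.28 without passing.

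**Figure D4:**
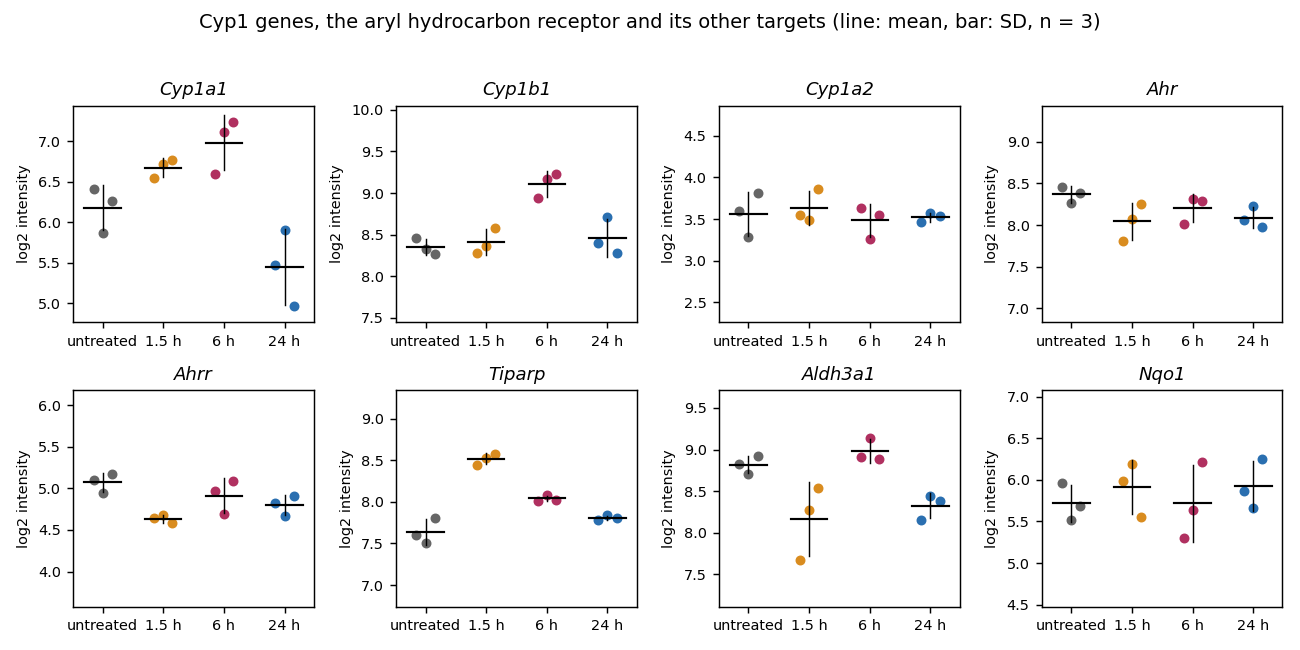
Log2 intensity (y axis) on each array by group (x axis) for the 3 Cyp1 genes, Ahr and 4 further receptor targets; points are arrays, the line is the mean and the bar the SD of 3 arrays. Cyp1b1 is highest at 6 h and Tiparp at 1.5 h, while Cyp1a1 drops to between 4.97 and 5.90 at 24 h.

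Of 7 genes for sterols, oxysterols and bile acids, 1 passed against untreated skin. Cyp39a1 hydroxylates oxysterols on the way to bile acids. Its values were 7.53, 7.25 and 7.28 in untreated skin, 6.96, 7.34 and 7.37 at 1.5 h, 6.74, 6.88 and 6.56 at 6 h, then 6.98, 6.81 and 7.30 at 24 h. The 6 h arrays lay below those of untreated skin and of 1.5 h and overlapped those of 24 h. The gene fell by 0.63 at 6 h (1.55-fold, limma adjusted p = 0.0263), a call lost without untreated replicates 1 (0.112) or 3 (0.0631) and without 6 h replicates 1 (0.0513) or 3 (0.101), with a range of 0.0144 to 0.112. Its fall of 0.50 from 1.5 h to 6 h (adjusted p = 0.0461) was lost when any 1 of 9 arrays was left out, with a range of 0.0145 to 0.143 (the highest without 1.5 h replicate 2).

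Cyp51, the lanosterol demethylase of cholesterol synthesis, had values of 8.16 to 8.77 on the 12 arrays and differences, none of which passed, of 0.03, -0.08 and -0.01. Cyp7b1, which clears oxysterols made by Ch25h, had untreated values of 5.61, 5.34 and 6.29 and 24 h values of 6.69, 6.63 and 5.93. These groups overlapped, and the difference of 0.67 did not pass (95% interval 0.10 to 1.25, adjusted p = 0.218). Ch25h itself, outside the family, rose by 4.78 at 6 h and by 2.29 at 24 h. Cyp7a1, which starts bile acid synthesis in liver, was 0.41 higher at 6 h at a mean intensity of 2.72, and did not pass (adjusted p = 0.162).

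None of the 3 genes that clear retinoic acid passed limma at any time, and 1 had an unadjusted p under 0.05 at 1.5 h and 1 at 6 h. Such a p was found for 17.5% and 23.2% of all genes at these times. Cyp26b1, known from skin, had values of 7.51, 7.32 and 7.68 in untreated skin and 6.80, 6.84 and 7.29 at 1.5 h, groups that did not overlap. The difference was -0.53 with a 95% interval of -0.97 to -0.09 (adjusted p = 0.192), and at 6 h and 24 h it was -0.14 and -0.37. Cyp26a1 differed by 0.08, -0.19 and -0.11 and Cyp26c1 by 0.14, 0.27 and -0.09. Of 19 other retinoid genes, 2 fell at 1.5 h and 1 at 6 h: Lrat, which stores retinol as esters, by 1.09 and 0.58, and at 1.5 h the lipid carrier Fabp5 by 0.54. These are 10.5% and 5.26% of the list, where 2.2% and 6.09% of all genes passed. Of the 2 measured vitamin D genes, Cyp27b1, which makes the active hormone, differed by -0.10, -0.06 and 0.00. Cyp2r1, which makes its precursor, differed by -0.12, -0.40 and -0.38 (adjusted p = 0.781, 0.203 and 0.299). Its values of 4.67 to 4.92 at 6 h lay below the untreated ones of 5.13 to 5.23.

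Among the 15 fatty acid omega-hydroxylases, 0 passed limma against untreated skin, and 3, 0 and 2 had an unadjusted p under 0.05 at 1.5 h, 6 h and 24 h. Such a p was found for 17.5%, 23.2% and 17.1% of all genes. Cyp4b1, a hydroxylase of fatty acids, had values of 8.35 on each untreated array, 8.01, 7.99 and 8.27 at 1.5 h, 8.44, 8.49 and 8.38 at 6 h, and 8.36, 8.50 and 8.23 at 24 h. It rose by 0.35 from 1.5 h to 6 h (adjusted p = 0.0476), which was lost when any 1 of 9 arrays was left out, with a range of 0.0234 to 0.191. Cyp4f39, which hydroxylates the very long fatty acids of barrier ceramides, had values of 7.43, 6.94 and 7.21 in untreated skin and 6.41, 6.86 and 6.59 at 24 h. Those groups did not overlap, and the difference of -0.58 did not pass (95% interval -0.93 to -0.23, adjusted p = 0.0767). Cyp4f18, the leukotriene hydroxylase of neutrophils, was 0.49 higher at 1.5 h (adjusted p = 0.134) and passed there without 1.5 h replicate 3 (0.68, adjusted p = 0.0387). The mean of 9 neutrophil markers lay between 6.13 and 6.60 on untreated arrays and between 6.87 and 7.71 at 1.5 h, and its part in that difference was not tested. Cyp4f15 was 0.44 higher at 1.5 h (adjusted p = 0.154).

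The 19 Cyp2c and Cyp2j genes, epoxygenases of arachidonic acid, had no call in any of the 6 comparisons by limma, with 1 to 3 genes at an unadjusted p under 0.05 in each. Such a p was found for 15.6% to 29.9% of all genes. The median intensity of the 19 genes was 2.88. Differences reached -0.60 for Cyp2j12 and -0.44 for Cyp2j9 at 1.5 h (adjusted p = 0.168 and 0.130) and -0.42 for Cyp2j6 at 6 h (adjusted p = 0.0749). Cyp2j6, at 8.18, 7.91 and 7.91 in untreated skin and 7.51, 7.59 and 7.65 at 6 h, did not overlap between these groups. Cyp2c67 differed by 0.46 at 1.5 h (adjusted p = 0.266). The 6 Cyp3a genes, drug-oxidising enzymes of the liver, had no call by limma either, with 1, 0 and 1 at an unadjusted p under 0.05 against untreated skin. For all genes these shares were 17.5%, 23.2% and 17.1%. The intensities of the 6 genes averaged 1.86 to 5.08, and the widest differences were -0.41 for Cyp3a57, -0.38 for Cyp3a13 and 0.35 for Cyp3a44. Cyp20a1, an orphan P450 with no settled substrate, had values of 7.25, 7.01 and 7.29 in untreated skin, 7.41, 7.12 and 7.17 at 1.5 h, 6.91, 6.51 and 6.71 at 6 h, and 7.19, 7.03 and 7.14 at 24 h. Its 6 h arrays lay below the other 9. It fell by 0.47 at 6 h (1.39-fold, adjusted p = 0.0448), which was lost when any 1 of 9 arrays was left out, with a range of 0.0182 to 0.166 (the highest without 6 h replicate 2). From 1.5 h to 6 h it fell by 0.52 (adjusted p = 0.0193), lost without 1.5 h replicate 1 (0.0714) or 6 h replicate 2 (0.0921), with a range of 0.00739 to 0.0921.

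The lists of partner genes, which feed, follow or regulate the family, hold 135 measured genes. Of these 6 passed at 1.5 h, 14 at 6 h and 7 at 24 h, or 4.44%, 10.4% and 5.19%, where 2.2%, 6.09% and 3.36% of all genes did. None of 8 measured electron donors and none of 16 conjugating enzymes passed limma against untreated skin, with at most 2 and 3 of them at an unadjusted p under 0.05. Such a p was found for 17.1% to 23.2% of all genes. Of 24 nuclear and xenobiotic receptors, 1 fell at 1.5 h (Nr3c1, the glucocorticoid receptor, by 0.46) and 2 at 6 h (Ppara, a sensor of fatty acids, by 0.52 and Rora by 0.47). Of 12 genes of heme supply and removal, 1 fell, at 6 h (Urod, by 0.55). Of 17 steroid genes outside the family, 1, 4 and 4 passed at the 3 times, 23.5% of the list at 6 h and at 24 h. Hsd3b6, a dehydrogenase of steroid synthesis, fell at all 3 times (log2 changes of -1.71, -0.85 and -1.04). In the same list Akr1c18 fell by 1.43 at 6 h, Tspo rose by 0.74 and 1.05 and Stard3 by 0.57 and 0.69 at 6 h and 24 h, and Hsd11b1, which reactivates corticosterone, rose by 1.24 at 24 h. Of 18 genes around Cyp51, Sc5d fell by 0.60 at 6 h and Ch25h rose as given above, and 0 passed at 1.5 h, where 2 had an unadjusted p under 0.05.

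Of 17 enzymes of eicosanoid and epoxide metabolism outside the Cyp symbols, 1 passed at 1.5 h, 3 at 6 h and 2 at 24 h. These are 5.88%, 17.6% and 11.8% of the list, where 2.2%, 6.09% and 3.36% of all genes passed. Ptgis, the prostacyclin synthase, rose by 0.70 at 1.5 h (limma adjusted p = 0.0137), and Ptgs2, the inducible cyclooxygenase, rose by 1.96 at 6 h (adjusted p = 0.000664). Ephx1, the microsomal epoxide hydrolase, fell by 0.75 at 6 h (adjusted p = 0.000352), and Ephx3 fell by 0.52 at 24 h (adjusted p = 0.0455). Alox12b, a lipoxygenase of the epidermal barrier, fell by 0.67 at 6 h and 0.63 at 24 h (adjusted p = 0.0240 and 0.0496). Between 1.5 h and 6 h, 7 of the 17 passed, 41.2% of the list against 13.3% of all genes. Ptgs2 rose by 1.48 there, and Ltc4s fell by 1.01, Ptgis by 0.95, Alox12b by 0.76, Alox12 by 0.57, Alox5 by 0.47 and Ephx1 by 0.34. From 6 h to 24 h Ptgis, Tbxas1 (the thromboxane synthase) and Ephx1 rose by 0.72, 0.64 and 0.48 and Ptgs2 fell by 1.53. Alox12b, Alox5 and Ephx3 stood lower at 24 h than at 1.5 h, with differences of -0.71, -0.64 and -0.58.

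Partner genes of the other lists also differed between times. Blvrb and Fech of heme metabolism fell by 0.74 and 0.41 from 1.5 h to 6 h and Ppox rose by 0.61, while over the same interval the conjugating enzymes Gstm2 and Sult2b1 fell by 0.53 and 0.57. Blvrb and Urod rose from 6 h to 24 h, by 0.70 and 0.57. Hsd3b6, Stard3 and Lrat were higher than at 1.5 h both at 6 h (0.86, 0.63 and 0.51) and at 24 h (0.67, 0.74 and 0.76). Tiparp and Dhcr7, the last enzyme of cholesterol synthesis, were lower than at 1.5 h at 6 h (-0.48 and -0.57) and at 24 h (-0.71 and -0.65).

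Markers of skin glands, hair follicles and epithelia differed on the same arrays as the falling genes. The mean of 14 sebaceous gland markers was 9.25, 9.20 and 9.46 in untreated skin and 8.98, 8.27 and 8.82 at 1.5 h, and it ranged from 9.08 to 9.10 at 6 h and from 8.67 to 9.13 at 24 h. Of those markers 4 fell at 1.5 h (Awat2, Far2, Mc5r and Acsbg1, by 0.67 to 1.48) and 0 passed limma at 6 h or 24 h, where 3 and 9 had an unadjusted p under 0.05. Of all genes, 1.59% were called lower at 1.5 h, and 23.2% and 17.1% had such a p at 6 h and 24 h. On 1.5 h replicate 2, where the sebaceous mean was lowest, Cyp2g1 (10.17), Cyp2b19 (7.29) and Cyp2f2 (9.35) were also lowest of their group, while Cyp17a1 was lowest on replicate 3. The means of ductal epithelium, macrophage, neutrophil, dendritic cell, B cell, adipocyte, fibroblast and endothelium markers were lowest of that group on replicate 2 too. Those of hair, keratinocyte, skeletal muscle and hepatocyte markers were not. Of the 13 hair shaft and root sheath markers, 12, 13 and 13 lay below untreated skin at the 3 times, with median changes of -1.38, -1.13 and -1.22. The keratins Krt25 and Krt71 of this list fell at 6 h, by 3.55 and 3.26, and 0 passed limma at 1.5 h or 24 h, where 8 and 6 had an unadjusted p under 0.05. Of all genes, 2.71% were called lower at 6 h, and 17.5% and 17.1% had such a p at 1.5 h and 24 h. The mean of the 13 markers was 5.30, 8.02 and 5.76 on the untreated arrays, 4.79 to 5.21 at 1.5 h, 4.86 to 5.09 at 6 h and 4.90 to 5.38 at 24 h, so untreated replicate 2 stood apart. Without that array Cyp2g1 and Cyp17a1 still passed at all 3 times. Cyp2b19 and Cyp2f2 then lost their 1.5 h calls (limma adjusted p = 0.0563 and 0.0787) and Cyp2ab1 its 24 h call (0.155). The other calls of Cyp genes against untreated skin stayed. The mean of 9 markers of simple and ductal epithelium lay between 5.87 and 5.95 on untreated arrays, 7.41 to 8.39 at 1.5 h and 7.19 to 7.64 at 24 h. At 6 h it was 7.98 on replicate 1 and 5.85 and 5.78 on the others, and there Cyp2g1 stood at 11.51 on replicate 1 against 11.58 and 11.52, all below the untreated arrays. Markers of suprabasal keratinocytes, 7 in number, had means between 11.70 and 11.82 on untreated arrays, 11.57 to 11.75 at 1.5 h, 11.34 to 11.62 at 6 h and 11.34 to 11.52 at 24 h, and 2 of them (Krt1 and Lor) fell at 24 h. At that time 0.808% of all genes were called lower. The part of these markers in the falls was not tested. In whole skin, fewer cells of a type and less RNA per cell cannot be told apart. The p-values set each difference against the spread between samples within the 4 groups, as pooled and moderated by limma.

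**Figure D5:**
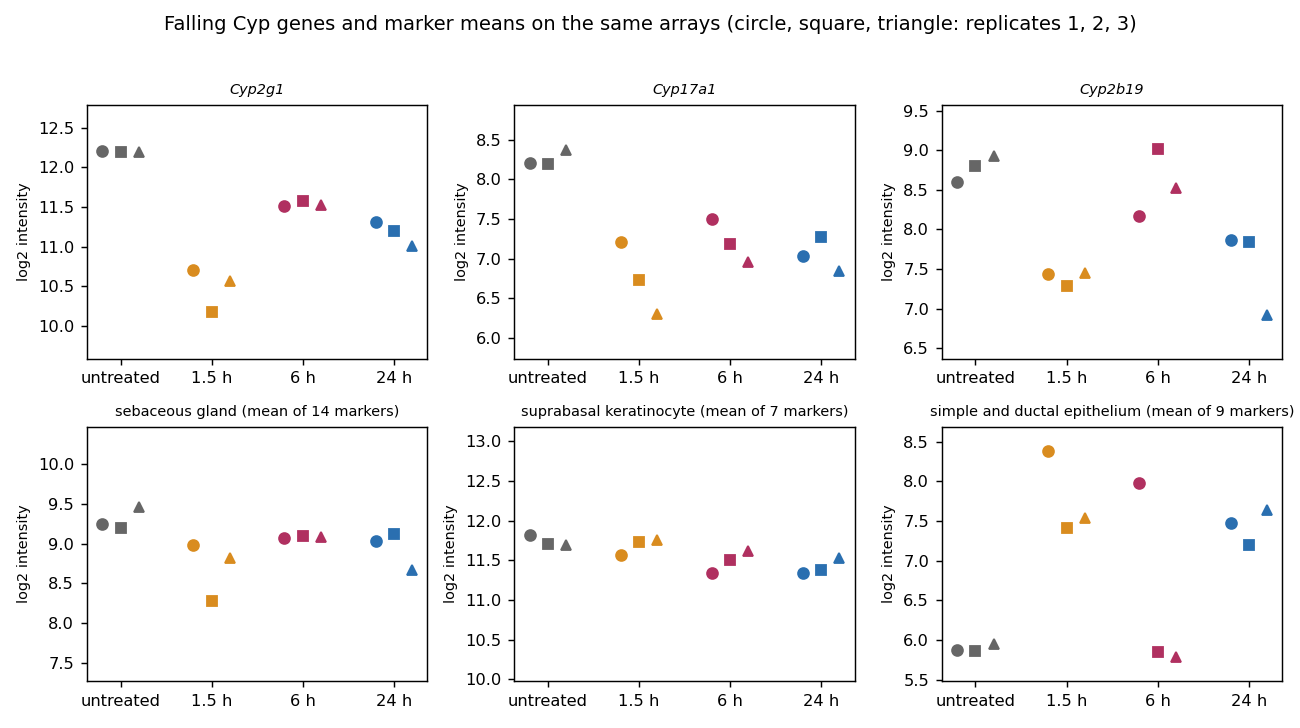
Log2 intensity (y axis) on each array by group (x axis) of Cyp2g1, Cyp17a1 and Cyp2b19 above, and of the mean of 3 marker lists below. Circle, square and triangle are replicates 1, 2 and 3, for which the sample titles state no pairing across groups. The sebaceous mean is lowest at 1.5 h (8.27 to 8.98), and the ductal mean on 6 h replicate 1 (7.98) is far above the other 6 h arrays.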

How the data were processed

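Gene expression was measured on 12 Affymetrix Mouse Gene 1.0 arrays, 1 per mouse skin sample. The deposited values are log2 intensities that the authors made by RMA, for which the submitters' processing notes name Affymetrix Expression Console 1.1. They were used without further scaling. The platform annotation names 1 gene for 21789 of 35556 probe sets, several for 1621 and none for 12146. For the 999 genes with more than 1 probe set the brightest on average was used, and 19938 genes remained. The number of arrays limits the precision.

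A single limma 3.58.1 model (lmFit, then eBayes, R 4.3.3) held all 4 groups, with 8 residual and 5.24 prior degrees of freedom and no replicate block. P-values are two-sided. In each comparison they were adjusted (Benjamini-Hochberg) over the 19938 genes, and genes with an adjusted p under 0.05 were called. An exact permutation test of 3 against 3 arrays cannot go below p = 0.1 and was not used. The procedure was tested on simulated data. The text names every Cyp gene that passed in any comparison, the 3 of each role with the largest change from untreated skin, the 5 brightest and 3 dimmest genes, a list of skin P450 genes, and the partner genes that passed. The Cyp genes, the roles, the partner lists and the marker lists were chosen with earlier results of these data known.

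Alternatives left out each array, or both arrays bright in Glycam1, or dim genes, or all groups but those compared. Others used the replicate number as a block, a floor of 5, median centring, quantile normalization, array weights, a trended robust fit, or the mean of a gene's probe sets. Sequences are those of the RefSeq table for GRCm38.p6, in which 64 of the 84 genes have a window.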

Additional observations from a re-analysis of the deposited data

Results flagged for a closer look

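For 10 Cyp genes the change from untreated skin differed between times by the test of that difference itself (limma, adjusted p under 0.05). From 1.5 h to 6 h, 6 h to 24 h and 1.5 h to 24 h, 10.7%, 4.76% and 2.38% of the family passed. Of all genes, 13.3%, 3.44% and 2.91% did. From 1.5 h to 6 h only the calls of Cyp2b19, Cyp2g1 and Cyp1b1 held whenever 1 array was left out. In the other 2 comparisons only those of Cyp1a1 and Cyp2g1 did. No group had more than 3 arrays, so no array was tested for standing apart. From 1.5 h to 6 h the difference was 1.18 for Cyp2b19, 1.05 for Cyp2g1, 0.81 for Cyp2f2, 0.70 for Cyp1b1, 0.42 for Cyp2b23, 0.42 for Cyp11a1 and 0.35 for Cyp4b1. In the same comparison it was -0.52 for Cyp20a1 and -0.50 for Cyp39a1. From 6 h to 24 h it was -1.54 for Cyp1a1, -1.02 for Cyp2b19, -0.65 for Cyp1b1 and -0.63 for Cyp2b23. From 1.5 h to 24 h it was -1.23 for Cyp1a1 and 0.69 for Cyp2g1. The change of Cyp2b19 from untreated skin was -0.21 at 6 h, against -1.38 at 1.5 h and -1.23 at 24 h. Cyp1a1 had its highest group mean at 6 h (6.98) and its lowest at 24 h (5.45).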

How the results depend on the processing

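No called change of a Cyp gene reversed its sign under any alternative. With values under 5 raised to 5, the number of Cyp genes called was 2 at 1.5 h, 3 at 6 h, 2 at 24 h, 5 between 1.5 h and 6 h, 2 between 6 h and 24 h and 1 between 1.5 h and 24 h. Of all genes, 0.607%, 5.26%, 2.44%, 8.93%, 1.89% and 2.15% were called with that floor. With only the groups compared in the fit, 5, 2 and 1 Cyp genes were called in the last 3 of these comparisons. Of all genes, 9.69%, 1.24% and 2.07% were. Leaving out 1 array gave 2 to 4 calls at 1.5 h, 3 to 5 at 6 h, 3 to 5 at 24 h, 4 to 9 between 1.5 h and 6 h, 1 to 4 between 6 h and 24 h, 2 to 2 between 1.5 h and 24 h, and 5 to 10 in the F test. The share of all genes called moved too, from 0.487% to 2.99% at 1.5 h and from 0.712% to 4.4% between 6 h and 24 h. The calls of Cyp2g1 and of Cyp17a1 against untreated skin kept their side of the threshold under every alternative run. The sample titles number the replicates and state no pairing of arrays. Of 18 same-numbered pairs, 4 had a correlation of deviations over 0.1 (range -0.22 to 0.33), and 5 arrays correlated best with their own number. The median correlation was 0.0464 for same-numbered pairs and 0.0049 for other pairs. With 3 arrays a group these values cannot decide whether the arrays were paired. With the replicate number as a block, 3, 5, 4, 6, 4 and 2 Cyp genes were called in the 6 comparisons and 9 in the F test. Of all genes, 2.22%, 5.7%, 3.36%, 13.2%, 3.09% and 2.97% were then called, and 11% in the F test. With both arrays bright in Glycam1 left out, the counts of Cyp genes were 3, 6, 5, 6, 5, 2 and 8. Of all genes, 0.993%, 6.12%, 4.31%, 7.18%, 4.93%, 3.78% and 9.07% were then called. Signal over background is not in the table, so how far dim probe sets limit the result was tested only by the floor and the filter.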

Other observations

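P450 enzymes whose genes carry other names make prostanoids, and their genes moved on these arrays. Ptgis, the prostacyclin synthase of vessel walls, had values of 7.07, 6.69 and 6.99 in untreated skin, 7.66, 7.75 and 7.44 at 1.5 h, 6.56, 6.68 and 6.76 at 6 h, then 7.50, 7.32 and 7.36 at 24 h. All 1.5 h and 24 h arrays lay above the untreated ones. Ptgis rose by 0.70 at 1.5 h (limma adjusted p = 0.0137), fell by 0.95 from 1.5 h to 6 h (adjusted p = 0.00026) and rose by 0.72 from 6 h to 24 h (adjusted p = 0.00761). Tbxas1, the thromboxane synthase of platelets and macrophages, was 0.58 higher at 24 h than in untreated skin (adjusted p = 0.0727) and rose by 0.64 from 6 h to 24 h (adjusted p = 0.0471). The mean of 9 macrophage and monocyte markers lay between 8.41 and 8.96 on untreated arrays and between 9.18 and 9.53 at 24 h. These markers were mixed: 3 of the 9 were lower at 24 h than in untreated skin. Changes of the 9 ran from -0.70 to 3.16, the latter that of Fcgr1. The part of these markers in the values of Tbxas1 was not tested. Of the 17 measured eicosanoid and epoxide genes outside the family, 1 rose at 1.5 h, 1 rose and 2 fell at 6 h, and 2 fell at 24 h. These are 5.88%, 17.6% and 11.8% of the list, against 2.2%, 6.09% and 3.36% of all genes. At 6 h Ptgs2, which feeds both synthases, rose by 1.96. Alox12b, an epidermal lipoxygenase of the barrier, fell by 0.67 at 6 h and 0.63 at 24 h, Ephx1 fell by 0.75 at 6 h and Ephx3 by 0.52 at 24 h.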
